A study of Mus musculus with 6 samples.

Results

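The 40 cell division genes described here code for proteins that copy DNA, supply it with nucleotides, drive the cell through its cycle and pull the chromosomes apart. They were chosen by symbol from the 32285 genes counted in each library, as genes known to be active in cycling cells. The libraries hold single cells of the right lung of 6 male mice with human CTLA4 knocked in (genotype hCTLA4), 12 weeks old, with lung fibrosis from bleomycin. All 6 mice had received bleomycin at 1.25 U/kg in 2 doses 2 weeks apart. From day 21, 3 mice received ipilimumab, an antibody that blocks human CTLA4, and 3 received IgG1, both at 5 mg/kg in 2 injections a week for 4.5 weeks. Each mouse gave 1 library, so the mouse is the replicate and n is 3 per group. Every value below is from lungs that had received bleomycin.

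A cell that divides copies its DNA in S phase and separates the copies in mitosis, and the genes for these steps are kept low in resting cells. Much of this control runs through E2F factors at replication genes and through the DREAM and MuvB complexes at mitotic genes, which bind a short element called CHR that often lies beside CCAAT boxes bound by NF-Y. In the lung, T cells that meet their antigen divide, alveolar macrophages can renew themselves in place, and mature neutrophils have left the cycle.

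Sequence before the start was read for 34 of the 40 genes (RefSeq, build GRCm38.p6). Aurkb, Ccna2, Kif20a, Mcm4, Stmn1 and Tpx2 were not among them. Stretches of 150 bases are shown for genes that stand for successive steps of the cycle. Mcm6 codes for a subunit of the replicative helicase (chr1:128359706-128359855, minus strand). Pclaf codes for a partner of the sliding clamp PCNA (chr9:65890173-65890322, plus strand). Cdk1 codes for the kinase that starts mitosis (chr10:69352913-69353062, minus strand). Top2a codes for the topoisomerase that untangles sister chromatids (chr11:99024190-99024339, minus strand). Cdc20 codes for an activator of the anaphase-promoting complex (chr4:118437344-118437493, minus strand), and Ube2c for the ubiquitin-conjugating enzyme that works with it (chr2:164769779-164769928, plus strand). All run 5′ to 3′ towards the gene. Capitals mark matches on either strand to CHR (TTTGAA), to the CCAAT box (CCAAT) and to the E2F words TTTGGCGC, TTTCCCGC and TTTCGCGC.
Mcm6: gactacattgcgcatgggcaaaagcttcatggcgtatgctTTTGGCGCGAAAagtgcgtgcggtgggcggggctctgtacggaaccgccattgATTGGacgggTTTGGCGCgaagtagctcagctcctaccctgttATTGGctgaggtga
Pclaf: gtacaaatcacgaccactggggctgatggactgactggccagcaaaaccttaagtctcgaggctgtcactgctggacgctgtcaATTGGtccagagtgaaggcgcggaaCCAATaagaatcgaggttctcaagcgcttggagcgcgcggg
Cdk1: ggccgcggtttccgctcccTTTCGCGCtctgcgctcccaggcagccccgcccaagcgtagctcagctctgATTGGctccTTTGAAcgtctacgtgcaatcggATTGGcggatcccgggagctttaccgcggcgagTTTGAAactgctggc
Top2a: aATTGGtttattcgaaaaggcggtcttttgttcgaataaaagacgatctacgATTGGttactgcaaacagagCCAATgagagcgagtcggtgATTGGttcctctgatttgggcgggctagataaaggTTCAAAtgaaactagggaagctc
Cdc20: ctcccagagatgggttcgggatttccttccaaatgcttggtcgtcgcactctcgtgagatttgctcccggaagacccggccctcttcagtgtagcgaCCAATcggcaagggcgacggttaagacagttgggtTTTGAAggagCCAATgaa
Ube2c: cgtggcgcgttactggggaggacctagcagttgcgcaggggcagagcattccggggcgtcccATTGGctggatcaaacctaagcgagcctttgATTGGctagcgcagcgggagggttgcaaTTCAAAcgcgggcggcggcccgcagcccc
The stretch before Mcm6 held 3 matches to the E2F words, of which the leftmost pair overlap, and 0 to CHR. That before Cdk1 held 2 CHR matches, 2 CCAAT boxes and 1 E2F word, and that before Top2a held 1 CHR match and 4 CCAAT boxes. Counted over windows from 250 bases before to 50 after the start, CHR was found in 18 of 34 members (52.9%) and in 20.2% of the 27025 genes with a window. By role it was found in 6 of 9 kinase, checkpoint and kinetochore genes, 3 of 5 genes of cyclins and CDK partners, 3 of 4 spindle genes, all 3 of Top2a, Mki67 and Hmgb2, and both Cdc20 and Ube2c. Among replication genes 1 of 7 held it, and among nucleotide genes 0 of 4. The E2F words were found in 5 of 7 replication genes, in Cdk1 and in no other member, and in 2.12% of all genes. The CCAAT box was found in 29 of 34 members (85.3%) and in 41.1% of all genes. It shared a window with CHR in 50% of the members and 7.97% of all genes. These are matches of letters, and binding was not measured. The starts were those of RefSeq. By GENCODE gene coordinates the stretches shown for Pclaf, Cdk1, Cdc20 and Ube2c lay partly inside the gene, that of Pclaf from position 65890237. In 25 of 36 windows of members, bases 6 to 35 after the start lay in a GENCODE transcript of the gene. The window of Mcm6 was not among them.

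In all, 24261 cells were used, 3270 to 4350 per mouse, from libraries of 37666042 to 48612412 unique molecular identifiers (UMIs). The library of ipilimumab replicate 1 stood apart, with 22056 barcodes that reached 100 UMIs, compared with 4834 to 6230 in the other libraries, and 78.9% of its UMIs in called cells where the others had at least 92.4%. Of 24199 distinct cell barcodes, 61 occurred in more than 1 library. Cells were gated by panels of 6 marker genes (7 for dendritic cells), each cell taking the type whose panel it matched best with at least 2 markers detected. In the T gate 89.2% of cells held Cd3e, against 0.997% of other cells. In the alveolar macrophage gate 98.9% held Plet1, against 4.52%, while Marco, on the same panel, was found in 14.8%. A level below is on the counts-per-million scale (CPM), the UMIs of a gene scaled by the UMIs of all genes in the same gate. It is used to compare cell types and mice for 1 gene or 1 sum, and not genes with each other.

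All 40 members were detected, with totals from 677 UMIs for Kif20a, a motor of cytokinesis, to 75728 for Hmgb2, a chromatin protein. Their summed level was 1998 CPM in T cells, 1591 CPM in dendritic cells, 1423 CPM in NK cells, 1047 CPM in alveolar macrophages, 704 CPM in B cells and 390.5 CPM in fibroblasts. Neutrophils had 972 CPM, near the alveolar macrophages. Of the neutrophil sum 586 CPM was Hmgb2 and 188 CPM was Cks2, a small partner of CDKs. Without Hmgb2 and the microtubule regulator Stmn1, neutrophils had 381 CPM and alveolar macrophages 849 CPM. Barcodes ranked 45000 to 90000 by their UMIs, which hold mostly free RNA, carried the members too, at 1127 to 1639 CPM per library. The part of free RNA in these levels was not tested.

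**Figure D1:**
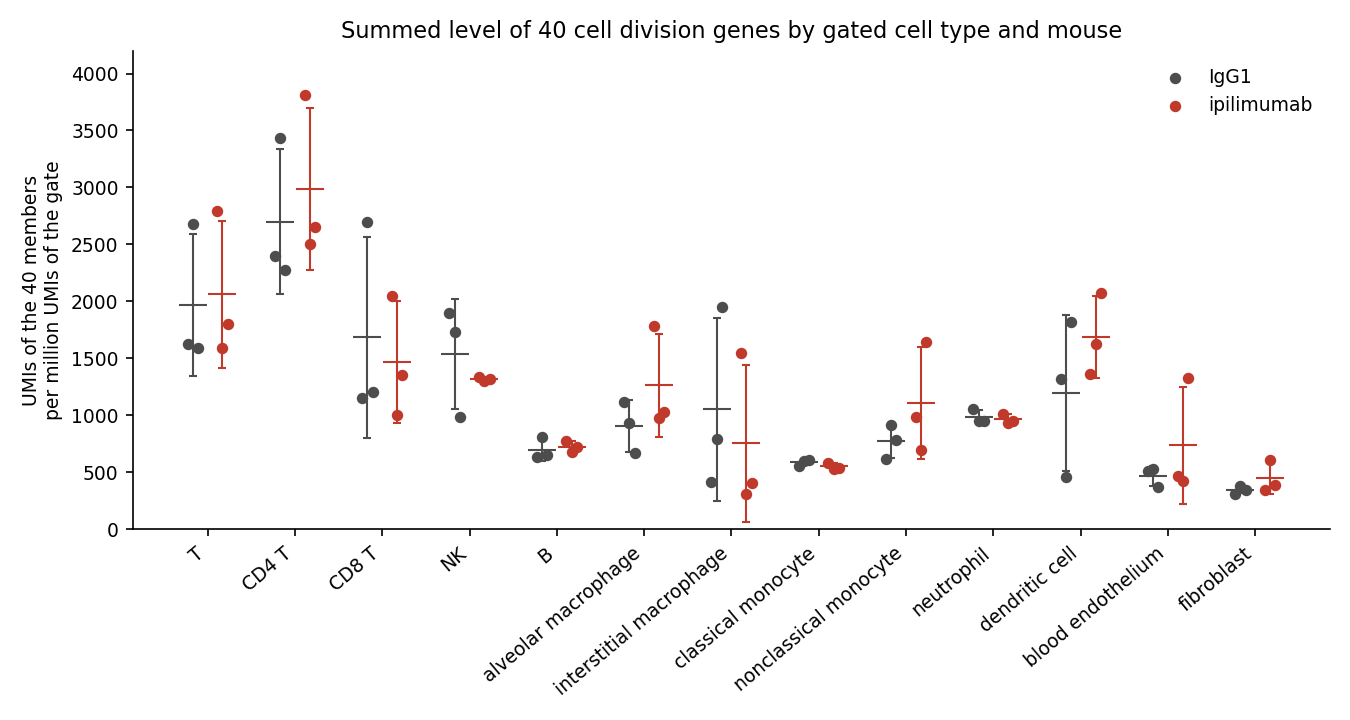
Summed level of the 40 members (vertical axis, CPM within the gate) by gated cell type, with 1 point per mouse, the mean as a line and ± 1 SD as a bar, for 3 IgG1 and 3 ipilimumab mice. CD4 T cells run from 2275 to 3807, and the points of the antibody groups overlap in each gate drawn.

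The members ranged from genes that most cells carried to genes found mainly in cells that held several of them. To show this, 24 mitotic members were set aside, namely those of cyclins, CDKs, kinases, checkpoint, kinetochore, spindle, chromosome and anaphase, without Hmgb2, Stmn1, Cks1b and Cks2. Each member was then measured in cells with 3 or more of the other mitotic members and in cells with none of them, as a description without a test. Pclaf was at 204 CPM in the former and 0.521 CPM in the latter, the largest ratio of the 40 at 393. The ratio was 315 for Ube2c, 261 for Ccna2, a cyclin of S phase and mitosis, 218 for the kinetochore gene Cenpf, 120.4 for Birc5, which codes for survivin, 107 for Mki67, whose product coats mitotic chromosomes, and 39.1 for Top2a. At the other end it was 2.43 for the helicase subunit Mcm4, 2.47 for Cks2, 2.81 for the clamp Pcna, 3.09 for Mcm6, 3.63 for the spindle kinase Aurka and 4.92 for Hmgb2. The replication genes other than Pclaf lay between 2.43 and 7.57. The former cells had a median of 23203 UMIs and the latter 5876.

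Some members were also at high levels outside T cells. Cks2 was at 196 CPM in nonclassical monocytes, 188 CPM in neutrophils and 73.6 CPM in T cells. Kif23, a motor of cytokinesis, was at 67.0 CPM in neutrophils and 25.5 CPM in T cells, whereas Top2a was at 2.47 and 92.3 CPM. The spindle checkpoint gene Bub1b was at 34.2 CPM in alveolar macrophages, 9.13 CPM in T cells and 2.34 CPM in neutrophils. In cells with none of the other mitotic members, thinned to 2000 UMIs, it was found in 5.19% of alveolar macrophages and 0.294% of T cells. Its ratio between cells with and without other mitotic members was 47.4 in T cells and 2.46 in alveolar macrophages. For Ube2c the same ratios were 401 and 318.

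**Figure D2:**
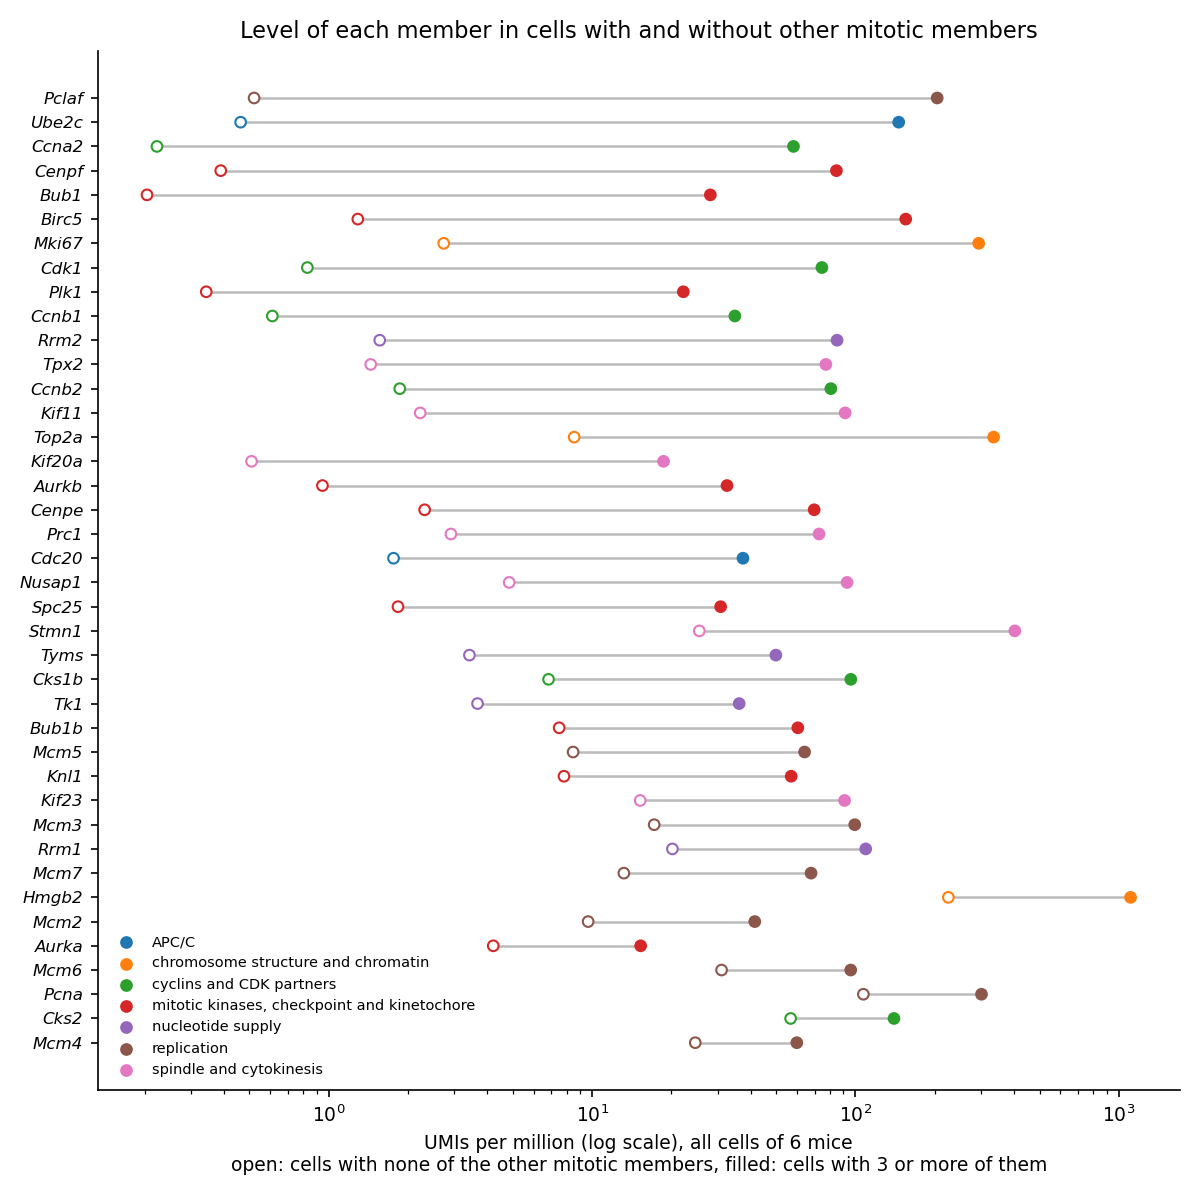
Level of each of the 40 members (horizontal log axis, CPM, all cells of 6 mice) in cells with none of the other mitotic members (open points) and with 3 or more of them (filled points), coloured by role. The points lie farthest apart for Pclaf, with a ratio of 393, and closest for Mcm4, with a ratio of 2.43.

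At least 3 of the 40 members were held by 13880 of 24261 cells (57.2%), since Hmgb2 was found in 69.0% of cells and Pcna in 50.9%. By mouse the share was 53.3%, 58.3% and 62.2% with IgG1 and 51.5%, 60% and 59.7% with ipilimumab, and the groups overlapped. It was 89.7% in alveolar macrophages and 20.3% in neutrophils. With each cell thinned to 2000 UMIs it was 10.8% of all cells, 11.1% of alveolar macrophages and 6.56% of neutrophils. Median depths were 20878.5 UMIs per cell in alveolar macrophages and 3853 in neutrophils.

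At least 3 of the 24 mitotic members were held by 1289 cells (5.31%, 95% Wilson interval 5.04 to 5.60). Of these, 568 were alveolar macrophages, 331 T cells, 120 B cells, 37 dendritic cells, 35 NK cells and 27 interstitial macrophages. Of those 27 interstitial macrophages, 15 came from ipilimumab replicate 1, the library that stood apart. Among neutrophils there were 4 of 1845 (0.217%, interval 0.0843 to 0.556), at the lower depth of that gate. In the barcodes that hold mostly free RNA the mitotic members summed to 199 to 409 CPM. The share was 21.1% of dendritic cells, 18.6% of alveolar macrophages, 18.8% of interstitial macrophages, 12.3% of the cells not gated, 6.36% of T cells, 2.35% of NK cells, 1.38% of B cells, 0.966% of blood endothelial cells and 0.414% of fibroblasts. The dendritic cell gate was less clean, with 3161 CPM of the airway secretory panel beside 1926 CPM of its own. Its marker Ccr7 was found in 49.1% of the gate and 44.2% of other cells. The interstitial macrophage gate had 2833 CPM of the alveolar macrophage panel beside 10400 CPM of its own. Thinned, the share was 6.32% of dendritic cells, 3.52% of alveolar macrophages, 5.30% of interstitial macrophages, 6.22% of the cells not gated, 3.07% of T cells, 0.962% of NK cells and 0.292% of B cells. Thinned neutrophils gave 0 of 1753, which allows a share of up to 0.171%. Thinning kept 4256, 4110 and 3198 cells with IgG1 and 3606, 3904 and 3942 with ipilimumab. Alveolar macrophages, the deepest of these gates, thus lay well above T cells at full depth and close to them at equal depth. Bub1b, counted among the 24, was also found in alveolar macrophages with none of the others, and its part in their share was not tested. Intervals and limits cover counting error only.

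The number of mitotic members per cell had 2 peaks in T cells and alveolar macrophages. Of 5203 T cells 3340 held 0, 85 held 3, 3 held 10, 23 held 20 and 20 held all 24. Of 3046 alveolar macrophages 260 held 3, 9 held 10, 2 held 16 and 25 held all 24. No neutrophil held more than 3, except 1 cell with 11. The T cells with 3 or more held 91.3% of the mitotic members' UMIs of their gate, with a median of 21 of the 40 members per cell against 3 in the other T cells. Alveolar macrophages with 3 or more held 85.4%, with a median of 10 members against 5. The cells were split by these same members, so only the size of such differences is informative, not their direction. Requiring 10 or more mitotic members left 383 cells, of which 161 were T cells and 118 alveolar macrophages. Removal of likely doublets had taken 7.13% of cells with 3 or more mitotic members and 3.16% of the others. Among the cells kept, median doublet scores were still 0.0402 against 0.0196 over all cells and 0.0525 against 0.0153 in T cells. They were 0.0264 against 0.0198 in alveolar macrophages and 0.0812 against 0.0896 in dendritic cells. How many doublets remained was not tested.

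**Figure D3:**
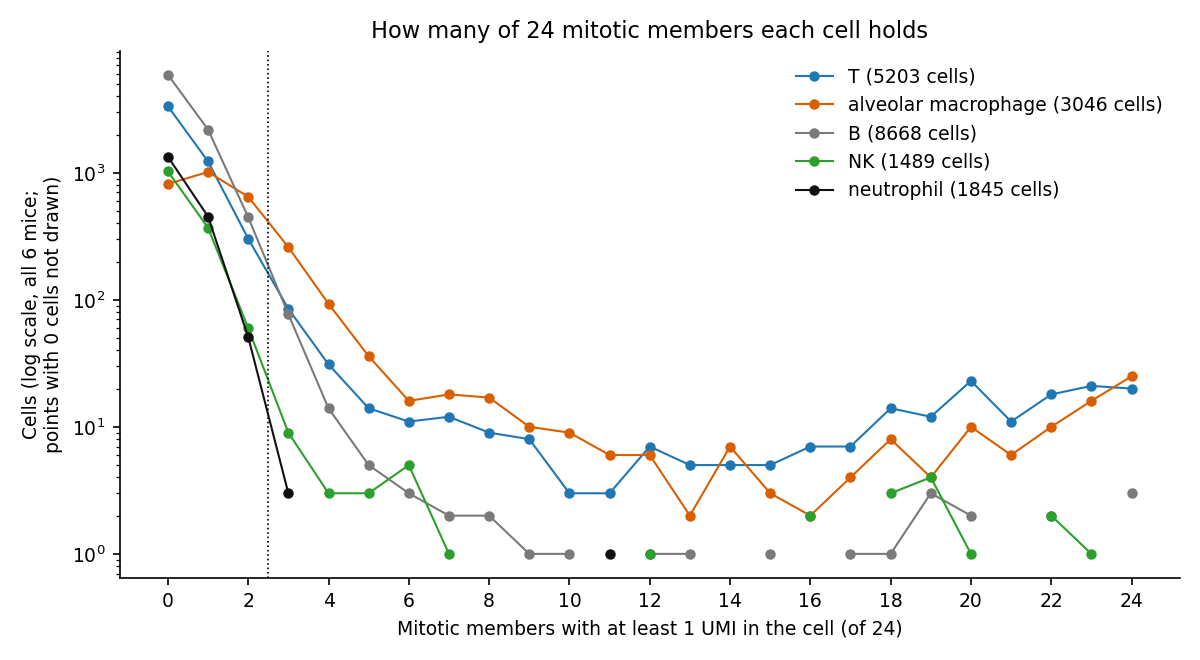
Number of cells (vertical log axis, 6 mice together, points at 0 cells not drawn) by how many of the 24 mitotic members they hold, for 5 gates, with a dotted line left of 3. T cells and alveolar macrophages fall and rise again, to 20 and 25 cells at 24 members, while neutrophils end at 3 apart from 1 cell at 11.

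T cells with 3 or more mitotic members were described by T cell genes that are not members, beside alveolar macrophages as cells that should lack them. Icos, a costimulatory receptor, was found in 82.8% of them, 54.8% of other T cells and 1.38% of alveolar macrophages, at median depths of 20403, 8384 and 20878 UMIs. At 2000 UMIs the shares were 42.7%, 27.9% and 0.242%, and the first was above the second in 6 of 6 mice. Gzmb, a cytotoxic granule protease, was found in 31.7% and 8.29%, and thinned at 13.2% and 4.61%, also higher in 6 of 6. Foxp3, the regulatory T cell factor, was thinned at 3.05% and 1.55%, higher in 5 of 6, with unthinned shares of 12.1% and 3.41%. By mouse the thinned Foxp3 share in the former was 0%, 2.33% and 2.04% with IgG1 and 2.80%, 5.79% and 5.67% with ipilimumab. In the other T cells it was 0.864%, 1.83% and 1.02% with IgG1 and 1.90%, 1.54% and 2.12% with ipilimumab. The difference between the antibodies in this share was not tested. When thinned, genes of naive and memory T cells were lower in the cells with 3 or more mitotic members in all 6 mice. Ccr7 was found in 49.8% and 66.6%, and thinned at 20% and 43.0%, and Tcf7 in 73.1% and 79.3%, thinned at 30.8% and 43.1%. In alveolar macrophages these genes were found in 0.0985% (Foxp3) to 3.45% (Ccr7) of cells. Il2ra, which codes for CD25, was 14.5% against 7.64% at full depth but 3.14% against 3.59% when thinned.

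CD4 and CD8 T cells were compared to ask which T cells carried the members. CD4 T cells here are T cells with a Cd4 UMI and no Cd8a or Cd8b1 UMI, and CD8 T cells the reverse. In CD4 T cells the summed level was 2395, 3433 and 2275 CPM with IgG1 and 3807, 2503 and 2656 CPM with ipilimumab. In CD8 T cells of the same mice it was 1152, 2698 and 1201 CPM with IgG1 and 2048, 1004 and 1352 CPM with ipilimumab. CD4 T cells were higher in each of the 6 mice, although the ranges over mice overlapped. By the edgeR quasi-likelihood test over all genes with the mouse as a block, 31 of 40 members were called lower in CD8 T cells and 0 higher. Called means an adjusted p under 0.05 and a log2 fold change beyond 0.3. Of all 10091 genes tested, 12.1% were called lower and 9.52% higher.

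The calls were fewest among replication genes, 3 of 8, with a median log2 fold change of -0.28. Mcm6 at -0.15 (SE 0.07) was not called, nor was Pcna at -0.28 (SE 0.05), which fell short of 0.3. All 4 nucleotide genes were, from Rrm1, the large subunit gene of ribonucleotide reductase, at -0.51 to the thymidine kinase gene Tk1 at -1.10. Among cyclins and CDK partners 5 of 6 were called, with Ccnb1, the cyclin of entry into mitosis, at -1.97 (SE 0.35) and Cdk1 at -1.55, but Cks2 at -0.10 was not. Among 10 kinase, checkpoint and kinetochore genes 8 were called, Birc5 at -1.33 among them, and Plk1 at -1.04 and Aurka at -0.50 were not. Of 7 spindle genes 6 were called. Top2a, Mki67 and Hmgb2 were called at -1.20, -1.47 and -0.95. Ube2c had the largest difference of the members at -1.98 (SE 0.21), with 81.4 CPM in CD4 and 20.8 CPM in CD8 T cells. Cell cycle genes that are not members were called lower in CD8 T cells for 17 of 28 G2 and M phase genes (0 higher) and 9 of 34 S phase genes (2 higher). Genes that drive G1 were called lower for 3 of 12 (2 higher). Genes that brake the cycle were also called lower, 6 of 12 (1 higher), among them Cdkn2c at -1.22 and Cdkn1a at -0.75.

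The share of cells with 3 or more mitotic members was 8.6% of CD4 and 5.90% of CD8 T cells, and thinned 4.79% and 2.21%. Only the members were thinned there, and the gates kept their Cd4, Cd8a and Cd8b1 UMIs at full depth. Among all T cells, Cd4 was found in 52.0% of those with 3 or more mitotic members and 33.3% of the others. Cd8a was found in 37.5% and 29.0%. Thinned, Cd4 was at 16.1% and 13.7% and Cd8a at 14.1% and 10.9%, each higher in 5 of 6 mice. CD8 T cells were the deeper, at a median of 9851 UMIs against 7966. Cells with 3 or more mitotic members had medians of 21280.5 UMIs in CD4 and 18464 in CD8 T cells. The other cells of these gates had 7759 and 9658. A cell needed a Cd4 UMI to enter the CD4 gate, and the part of depth in the differences between these gates was not tested. The 117 T cells with UMIs of both kinds had a share of 23.9% and the 1360 with neither had 2.79%, so cells at both extremes lay outside the comparison.

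NK cells had lower levels of most members than T cells. By the same test 33 of 40 were called lower in NK cells, where 24.4% of 11069 genes were. Mcm6 was the 1 member called higher, at 0.38 (SE 0.08) with an edgeR adjusted p of 0.002, where 23% of genes were. Its level was 99.5 CPM in NK and 69.5 CPM in T cells. The largest difference was that of Rrm2, the small subunit gene of ribonucleotide reductase, at -2.35 (SE 0.30), followed by Cdc20 at -2.21 and Ccnb1 at -2.16. Aurka, Pcna, Mcm2, Cks2, Spc25 and Stmn1 were not called, and Stmn1 was at 123 CPM in NK and 121 CPM in T cells.

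Between alveolar and interstitial macrophages most of the members called were replication genes. By that test 10 of 40 members were called higher in alveolar macrophages (14.8% of 10432 genes were) and 0 lower (14.3%). Among the 10 were 6 of 8 replication genes, namely Mcm2 at 2.09, Mcm4 at 0.96, Mcm5 at 1.05, Mcm6 at 1.35, Pcna at 0.47 and Pclaf at 2.12. Rrm2 had the largest log2 fold change at 2.72 (SE 0.54), and Bub1b, the kinetochore gene Spc25 and the spindle gene Nusap1 were called at 1.59, 1.83 and 1.57. Mki67 at 0.30 (SE 0.57) and Top2a at 0.54 (SE 0.64) were not called. The count rests on 144 interstitial macrophages, 11 to 31 per mouse. It was 6, 5 and 5 without ipilimumab replicates 1, 2 and 3, and 7, 7 and 16 without IgG1 replicates 1, 2 and 3. In the structural cells 9 members passed the filter on low counts. Of those, Cks1b at 1.5, Mcm4 at 1.13 and Rrm1 at 0.95 were called higher in fibroblasts than in blood endothelium (31.5% of genes were), and Stmn1 at -2.46 and Mcm3 at -1.11 lower (30.4%).

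Between the antibodies, edgeR called 0 members in each of the gates tested. All 40 were tested in all cells together, T cells, CD4 T cells, CD8 T cells and alveolar macrophages, 39 in B cells, 27 in NK cells, 23 in dendritic cells, 13 in nonclassical monocytes and 5 to 8 in the other gates. Of all genes tested, 0% were called in those gates, except 0.0977% in classical monocytes and 0.0135% in fibroblasts. At an unadjusted p under 0.05 there were 2 members in all cells, 6 in CD4 T cells, 1 in CD8 T cells, 3 in B cells, 4 in NK cells, 1 in alveolar macrophages, 3 in nonclassical monocytes, 5 in dendritic cells and 0 in the rest. Of all genes tested, 5.28% passed it in all cells, 6.47% in CD4 T cells, 6.48% in B cells, 5.44% in NK cells, 5.08% in nonclassical monocytes and 5.71% in dendritic cells, and from 3.73% (CD8 T cells) to 8.45% (blood endothelium) over the gates. DESeq2 also called 0 members in each.

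In T cells the summed level was 1624, 2683 and 1595 CPM with IgG1 and 2793, 1593 and 1797 CPM with ipilimumab. IgG1 replicate 2 and ipilimumab replicate 1, the library that stood apart, were high and the other 4 mice low, so the groups overlapped. Mki67 was at 47.8, 90.9 and 55.7 CPM with IgG1 and 108, 37.0 and 48.2 CPM with ipilimumab, a log2 fold change of -0.03 (SE 0.36). The same 2 mice were highest for Top2a, at 74.3, 134 and 69.6 CPM with IgG1 and 137, 63.9 and 81.3 CPM with ipilimumab, with a log2 fold change of 0.00 (SE 0.30). Pclaf was at 45.3, 104 and 35.7 CPM with IgG1 and 93.1, 38.6 and 49.5 CPM with ipilimumab, or -0.04 (SE 0.40), and Birc5, of the chromosomal passenger complex, at 31.6, 62.8 and 29.7 CPM with IgG1 and 67.0, 35.9 and 43.7 CPM with ipilimumab, or 0.23 (SE 0.30). In none of the 40 members did the groups separate in T cells, where 12.2% of all genes did. Replication and CDK partner genes gave 0.06 (SE 0.16) for Pcna, -0.03 (SE 0.18) for Mcm6 and 0.08 (SE 0.28) for Cks1b, whose product helps degrade a CDK inhibitor.

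In CD4 T cells 31 of 40 members had a positive log2 fold change, with a median of 0.09 against 0.01 over all genes, of which 51.1% were positive. Without IgG1 replicate 3 there were 18 positive and a median of -0.01, and without ipilimumab replicate 1 there were 19 positive and a median of -0.06. The 6 with an unadjusted p under 0.05 were all higher with ipilimumab. They were Prc1, which bundles the central spindle, at 0.60 (SE 0.18), the passenger complex kinase Aurkb at 0.73 (SE 0.27), the kinetochore genes Cenpf at 0.57 (SE 0.19) and Cenpe at 0.48 (SE 0.21), and the cyclins Ccnb2 at 0.53 (SE 0.21) and Ccnb1 at 0.52 (SE 0.19). The lowest edgeR adjusted p of a member was 0.71, that of Prc1. Prc1 was at 16.3, 21.8 and 22.8 CPM with IgG1 and 35.8, 27.8 and 31.2 CPM with ipilimumab, without overlap. Groups did not overlap in 5 of 40 members and in 10.9% of all genes. Mki67 overlapped, at 81.2, 129 and 97.2 CPM with IgG1 and 165, 73.1 and 84.7 CPM with ipilimumab, with a log2 fold change of 0.04 (SE 0.28), and Top2a was at 0.03 (SE 0.18).

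In CD8 T cells 9 of 40 members were positive, with a median of -0.17, where 50.7% of all genes were positive. The direction turned without IgG1 replicate 2, with 34 positive and a median of 0.44, and without ipilimumab replicate 2, with 25 positive and a median of 0.07. The count was 2, 1 and 1 without IgG1 replicate 1, IgG1 replicate 3 and ipilimumab replicate 1, with a lowest median of -0.58. Mki67 was at 24, 83.4 and 29.6 CPM with IgG1 and 59.2, 14.5 and 28.1 CPM with ipilimumab, with a log2 fold change of -0.39 (SE 0.49). Ccnb1 was at 3.55, 11.5 and 4.66 CPM with IgG1 and 4.07, 1.16 and 1.69 CPM with ipilimumab, a log2 fold change of -1.44 (SE 0.55), and was the 1 member with an unadjusted p under 0.05. The groups overlapped for both genes. The difference between the treatment effects, CD8 minus CD4, was itself tested, and 0 members were called (0% of 10804 genes). Ccnb1 had the largest difference at -1.93 (SE 0.51), with an edgeR adjusted p of 0.86.

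In alveolar macrophages all 40 members had a positive log2 fold change, where 51.9% of all genes did. The median was 0.61 and the range 0.07 to 1.29. The members were measured in the same cells of 6 mice and are not 40 independent observations. Their summed level was 1120.2, 936 and 666 CPM with IgG1 and 1786, 975 and 1026 CPM with ipilimumab. Ipilimumab replicate 1 was the highest and IgG1 replicate 3 the lowest, and the other 4 mice overlapped. These 2 mice were also highest and lowest in the members' free RNA, at 1639 and 1127 CPM, whose part in the result was not tested. Birc5 was at 19.3, 16.5 and 5.50 CPM with IgG1 and 41.1, 21.8 and 24.4 CPM with ipilimumab, a log2 fold change of 1.01 (SE 0.38) with an edgeR adjusted p of 0.86. Ube2c was at 12.8, 13.8 and 2.52 CPM with IgG1 and 38.0, 14.4 and 16.4 CPM with ipilimumab, or 1.11 (SE 0.52), and Cdc20 at 3.81, 3.74 and 0.472 CPM with IgG1 and 12.6, 4.43 and 4.36 CPM with ipilimumab, or 1.25 (SE 0.60). Groups did not overlap in these 3 and in Spc25, 4 of 40 members, and in 9.52% of all genes. Mki67 overlapped, at 54.4, 34.7 and 15.4 CPM with IgG1 and 90.6, 36.7 and 37.8 CPM with ipilimumab, with a log2 fold change of 0.61 (SE 0.45). Without ipilimumab replicate 1, the library that stood apart, 36 members were positive and the median was 0.21, and without IgG1 replicate 3 the median was 0.36. Replication genes had smaller values, with Pcna at 0.09 (SE 0.11) and Mcm6 at 0.22 (SE 0.17).

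**Figure D4:**
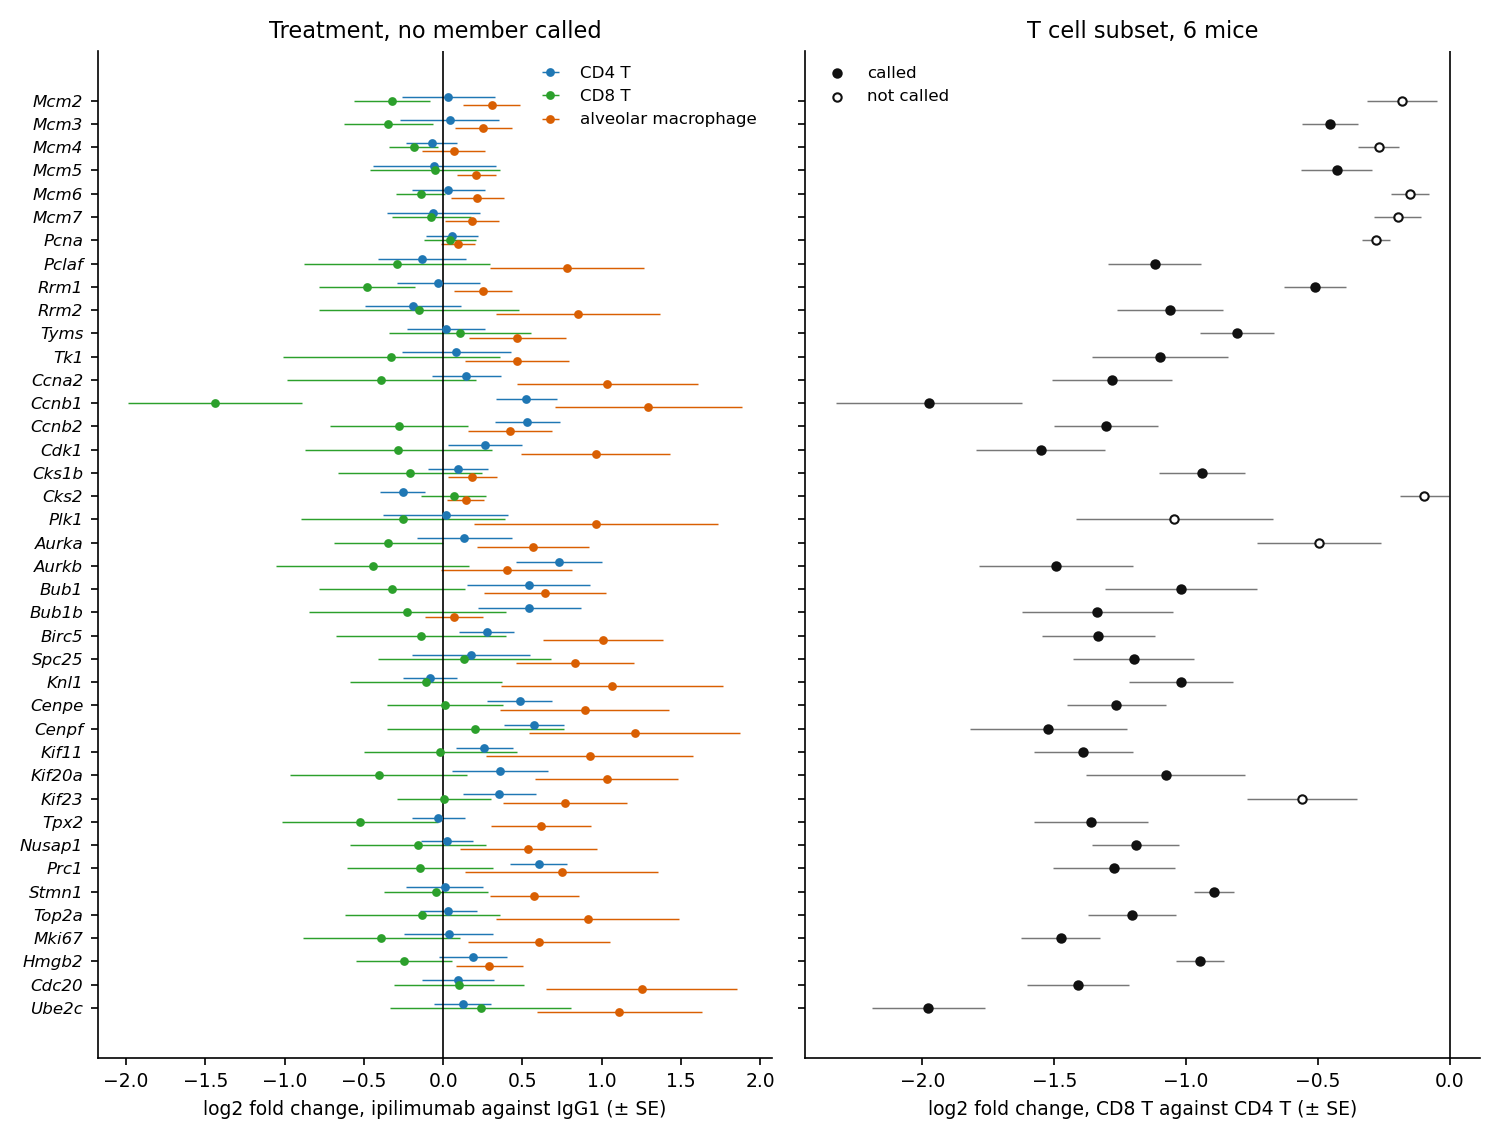
Log2 fold change of each member with ± 1 SE (horizontal axes), for ipilimumab against IgG1 in CD4 T cells, CD8 T cells and alveolar macrophages at the left and for CD8 against CD4 T cells at the right, where filled points are called. The alveolar macrophage points at the left are all above 0 with none called, and at the right 31 of 40 members are called, all below 0.

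The other gates gave mixed signs. Of all genes tested, 50.4% were positive in B cells, 50.8% in NK cells, 48.9% in dendritic cells and 49.1% in nonclassical monocytes. In B cells 27 of 39 tested members were positive (median 0.23), and Mki67 was at 5.44, 10.4 and 6.36 CPM with IgG1 and 14.7, 9.99 and 9.66 CPM with ipilimumab, or 0.67 (SE 0.25). In NK cells 3 of 27 were positive (median -0.26). There Pclaf was at 48.9, 28.6 and 4.59 CPM with IgG1 and 8.47, 11.6 and 13.6 CPM with ipilimumab, or -1.24 (SE 0.49), with IgG1 replicate 3 below all ipilimumab mice. Without that mouse 2 members were called lower with ipilimumab, Pclaf at -1.73 and Mki67 at -1.31, among 14 of 9128 genes called in that fit. In dendritic cells 19 of 23 were positive (median 0.50). There Ube2c was at 8.33, 2.48 and 30.6 CPM with IgG1 and 102, 51.2 and 41.0 CPM with ipilimumab, or 2.09 (SE 0.63), without overlap, from 18 to 49 cells per mouse. Groups did not overlap in 6 of 23 members in dendritic cells and in 12.6% of all genes. In nonclassical monocytes 12 of 13 were positive (median 1.17), and Mki67 was at 7.93, 20.5 and 11.4 CPM with IgG1 and 10.8, 5.31 and 95.3 CPM with ipilimumab, high in ipilimumab replicate 3. Dendritic cells numbered 62 with IgG1 and 113 with ipilimumab, and nonclassical monocytes 226 and 399. A member could pass the filter on low counts through the mice of 1 group alone. In NK cells, dendritic cells and nonclassical monocytes only 27, 23 and 13 of the 40 passed. Counts of signs, or of groups without overlap, therefore cannot decide a direction there, and the part of the filter was not tested.

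The share of cells with 3 or more mitotic members overlapped between the antibodies in each gate. In T cells it was 4.99%, 7.61% and 6.26% with IgG1 and 10.3%, 4.85% and 4.68% with ipilimumab, and thinned 1.90%, 3.69% and 2.68% with IgG1 and 5.75%, 2.06% and 2.66% with ipilimumab. In CD4 T cells it was 7.51%, 9.79% and 7.25% with IgG1 and 13.1%, 5.76% and 8.33% with ipilimumab. In alveolar macrophages it was 17.8%, 16.2% and 17.8% with IgG1 and 25.6%, 15.7% and 22.2% with ipilimumab, and thinned 3.70%, 2.29% and 0.380% with IgG1 and 8.6%, 2.96% and 4.35% with ipilimumab. Ipilimumab replicate 1 was the highest mouse in each. The wider count of 3 or more of the 40 members did not overlap in dendritic cells, at 83.3%, 59.1% and 68.2% with IgG1 and 100%, 94.6% and 87.8% with ipilimumab, and thinned 16.7%, 0% and 13.6% with IgG1 and 23.1%, 21.6% and 22.4% with ipilimumab. In blood endothelium it did not overlap when thinned, at 3.68%, 5.88% and 4.82% with IgG1 and 1.85%, 1.83% and 3.30% with ipilimumab, the opposite direction. These gates were picked for their lack of overlap among many gates and measures, and no test was made of them. For 3 or more mitotic members interstitial macrophages gave 13%, 6.45% and 18.2% with IgG1 and 55.6%, 8.70% and 10.3% with ipilimumab, where the value of ipilimumab replicate 1 came from 15 of 27 cells (Wilson interval 37.3 to 72.4). The plasma cell gate held 45 cells, 2 to 13 per mouse, of which 20 had 3 or more mitotic members (44.4%, interval 30.9 to 58.8), and no comparison was made there.

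**Figure D5:**
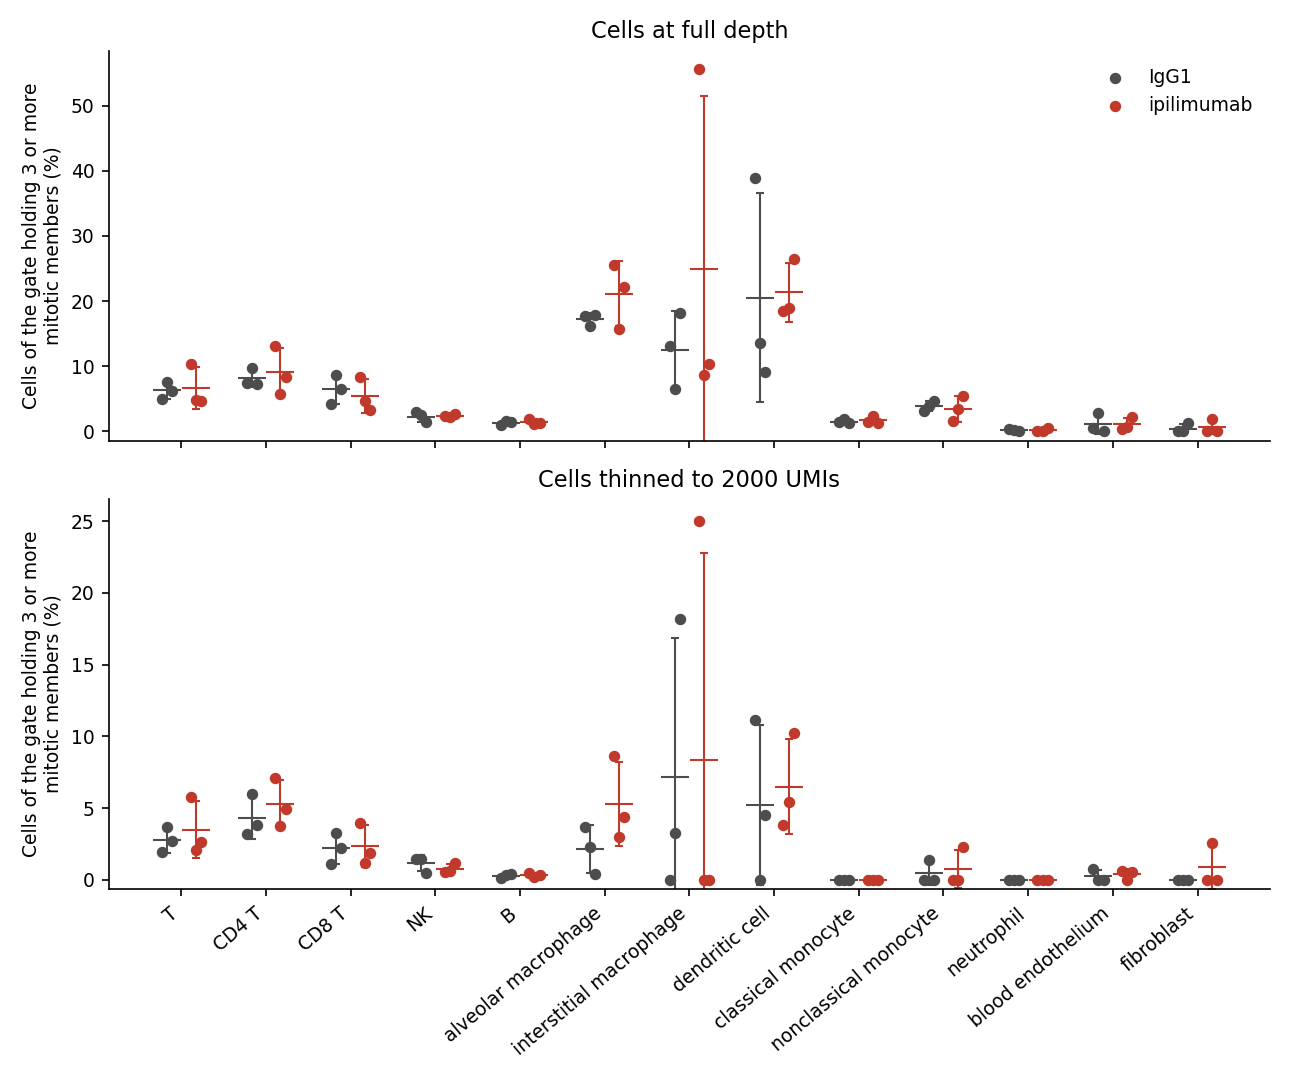
Share of cells (vertical axes, %) with 3 or more of the 24 mitotic members at full depth (top) and with each cell thinned to 2000 UMIs (bottom), with 1 point per mouse, the mean as a line and ± 1 SD as a bar, which is not drawn below the axis. Macrophages and dendritic cells lie highest at full depth, with 55.6% for interstitial macrophages of ipilimumab replicate 1, and neutrophils lie at or near 0 in both panels.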

How the data were processed

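The deposited values were whole UMI counts per gene and barcode, 1 matrix for each of the 6 mice, which the authors made from droplet libraries. The submitters' processing notes name Cell Ranger 7.0.0 and the build mm10. The counts were used as deposited. Cells were called by UMI total, or by a profile differing from barcodes ranked 45000 to 90000 (false discovery rate 0.01, at least 500 UMIs), then kept with at least 200 genes and at most 10% mitochondrial UMIs, and likely doublets, scored against 2 simulated doublets per cell, were removed. Gates used panels of 6 markers (7 for dendritic cells) with at least 2 detected, and ties were left ungated. Counts were summed per mouse and gate (at least 10 cells) and tested over all genes with edgeR 4.0.16 in R 4.3.3 (quasi-likelihood, TMM factors, filterByExpr, Benjamini-Hochberg adjustment over all genes tested). Comparisons of gates had the mouse as a block. DESeq2 1.42.0, total UMIs as size factors, no filter, doublets kept, other cell calling, a stricter gate and leaving out each mouse were alternatives. Scripts ran in Python 3.11.15 with numpy 2.4.6 and scipy 1.17.1 and were tested on simulated data. Thinning drew 2000 UMIs per cell without replacement, except that shares for T cell genes are the shares expected under such a draw.

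The members, gene lists and tests were chosen with earlier results of these data known. Named members were, in each role, the 2 with most UMIs, together with Mki67, Top2a, the 4 that an earlier analysis called in a T cell cluster (Pclaf, Birc5, Mki67 and Cks1b) and members called in a gate. Others were named after their values were seen, as examples of low unadjusted p, of groups without overlap or of high or low ratios. The count of mitotic members and the T cell genes after thinning were also added after seeing the data.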

Additional observations from a re-analysis of the deposited data

How the results depend on the processing

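Across 78 results and 958 alternative settings, 868 stayed on the same side of their threshold, within the spread between mice or, for counts of members, near the main count. For example, 7 or 12 members called higher in alveolar than in interstitial macrophages were taken as near the main count of 10. A change of sign within the spread between mice was also counted as staying. With 1 mouse left out, the log2 ratio of the summed level ran from -0.21 to 0.36 in T cells. It ran from -0.066 to 0.36 in CD4 T cells and from -0.52 to 0.32 in CD8 T cells. As log2 ratios of ipilimumab over IgG1, the share of cells with 3 or more members became 0.13 in all cells, 0.048 in T, 0.19 in CD4 T, 0.071 in NK and 0.13 in B cells with 5 or more members required. Thinned, it became 0.14 in all cells, 0.083 in T, 0.27 in CD4 T, -0.20 in CD8 T, -0.20 in NK and 0.17 in B cells, 0.24 in alveolar macrophages, -1.04 in blood endothelium and 0.88 in fibroblasts. With cells called by UMI total alone it became 0.10 in all cells, 0.032 in NK cells and 0.27 in blood endothelium. The summed level in blood endothelium ran from -0.086 to 0.93 with 1 mouse left out, the lowest without ipilimumab replicate 3.

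Single members changed sign with 1 mouse left out. In T cells their log2 fold changes ran as Mki67 -0.59 to 0.29, Top2a -0.34 to 0.37, Pclaf -0.46 to 0.56, Birc5 -0.039 to 0.66, Cks1b -0.11 to 0.50, in CD4 T cells as Mki67 -0.40 to 0.23, Top2a -0.16 to 0.21, Pclaf -0.38 to 0.25, Cks1b -0.072 to 0.28, and in CD8 T cells as Mki67 -1.02 to 0.33, Top2a -0.58 to 0.78, Pclaf -0.95 to 0.75, Birc5 -0.67 to 0.78, Cks1b -0.52 to 0.64. Top2a in T cells was -0.0024 by DESeq2, and Mki67 in CD4 T cells -0.025 with doublets kept. The correlation of same-numbered mice over all cells was 0.14, 0.33 and -0.16, and that of differently numbered mice ran from -0.45 to 0.38. The profiles were centred within groups of 3 mice, so these values cannot tell whether the replicate numbers pair the mice. With the replicate block 0 members were called in each gate, and Pclaf in T cells was 0.029, Mki67 in CD4 T cells -0.028 and Top2a in CD8 T cells 0.043.

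Counts of called members rose from 0 without the filter on low counts, to 3 (among 212 called of 22058 genes) in B cells, 1 (among 66 called of 18219 genes) in NK cells, 1 (among 104 called of 15665 genes) in interstitial macrophages, 2 (among 109 called of 16877 genes) in nonclassical monocytes, 1 (among 95 called of 16373 genes) in dendritic cells, 8 (among 275 called of 18997 genes) in blood endothelium and 1 (among 87 called of 21516 genes) for the difference of CD8 and CD4 effects. With 1 mouse left out NK cells gave 0 to 2, alveolar against interstitial macrophages 5 to 16 called higher, and fibroblasts against endothelium 1 to 2 called lower, where DESeq2 gave 1 and no filter 8. The cause of these changes was not tested. Precision is limited by 3 mice per group and by depth in small gates.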
